A study of Mus musculus with 12 samples.

Results

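The cytosolic ribosomal protein genes were followed in 4 mouse tissues of 3 genotypes. They were taken by symbol from the platform's probe table, as the genes named Rpl or Rps with a number and at most 1 further letter, together with Rplp0 to Rplp2 and Rpsa, among probe sets that carry a single symbol. This gave 46 genes, 24 of the large and 22 of the small subunit, out of 18193 genes measured by such a probe set. The 46 genes had 100 single-symbol probe sets, 23 genes having 1 and 23 more than 1, and each gene was read by the probe set with the highest mean over the arrays. A further 110 probe sets list a matching symbol beside other symbols, often those of processed copies, and could not be given to 1 gene. For this reason several well-known members are represented here by a dim probe set or are not among the 46.

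Profiles came from Affymetrix Mouse Genome expression arrays, hybridised with RNA of 4 organs (thymus, heart, lung, liver) taken at 2 months of age. The animals, all of the Sv/129 strain, were p53-/-, p66-/- or wild type (WT), p66Shc being a redox protein and one isoform of the adaptor Shc1, and no other allele or treatment was named. Each of the 12 arrays held RNA pooled from 4 mice, with 1 array for each tissue and genotype, and the plots label the knock-outs p53KO and p66KO. A difference between genotypes within a tissue therefore has no replicate check, and the 3 arrays of a tissue serve as its replicates only if genotype is left aside.

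A ribosome joins a small subunit, which decodes the messenger RNA, to a large subunit, which forms the peptide bond, and each subunit is built from ribosomal RNA and 1 copy of most of its proteins. The genes of these proteins are used in every cell, most with a short run of pyrimidines at the very start of the transcript through which the kinase mTOR sets their translation. A few have a paralogue that is used in particular tissues, such as Rpl3l in striated muscle. Several of the proteins, when free of the ribosome, bind the ubiquitin ligase Mdm2 and so touch on p53.

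RefSeq promoter windows of assembly GRCm38.p6, reaching from 250 bases before to 50 bases after an annotated start, were found for 40 of the 46 genes, 48 windows in all. An unbroken run of 8 or more C or T on the gene's strand, within 30 bases either side of the start, was present for 23 of the 40 genes (57.5%), against 25.8% of the 27025 genes with a window. The motif CGGAAG, the core of ETS factor sites, lay on either strand in the windows of 29 of the 40 genes (72.5%), against 18.8% of all genes, and AAGATGGC, a YY1 motif, in those of 3 (7.5%), against 3.19%. TATAAA within the 40 bases before the start was found for 0 of the 40, against 2.78%. TATATA in the same bases was found for 3 of the 40 (7.5%), against 1.37%. The stretches below, from 45 bases before to 25 bases after the start, belong to members on which the results turn, namely the member with the widest swings between arrays that was not confined to one tissue (Rpl27a), the 2 highest in thymus, the flattest bright member (Rps2), a paralogue pair and the heart member Rpl3l. Capitals mark pyrimidine runs of 8 or more.
Rpl27a (chr7:109519150-109519219, plus strand): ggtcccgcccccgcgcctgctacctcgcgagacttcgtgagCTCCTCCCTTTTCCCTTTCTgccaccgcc
Rpl11 (chr4:136053369-136053438, minus strand): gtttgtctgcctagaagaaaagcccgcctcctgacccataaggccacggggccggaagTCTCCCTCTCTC
Rps9 (chr7:3703996-3704065, plus strand): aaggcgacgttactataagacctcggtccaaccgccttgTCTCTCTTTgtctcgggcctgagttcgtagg
Rps2 (chr17:24720018-24720087, plus strand): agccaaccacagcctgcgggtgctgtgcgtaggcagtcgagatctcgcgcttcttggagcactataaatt
Rps27 (chr3:90213624-90213693, minus strand): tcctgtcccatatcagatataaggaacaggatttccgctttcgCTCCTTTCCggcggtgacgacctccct
Rps27l, the first of 2 windows (chr9:66946041-66946110, plus strand): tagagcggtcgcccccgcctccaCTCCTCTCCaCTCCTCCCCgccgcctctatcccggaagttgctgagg
Rpl3l, the first of 2 windows (chr17:24727781-24727850, plus strand): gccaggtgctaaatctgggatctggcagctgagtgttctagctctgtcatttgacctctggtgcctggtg
Rpl27a, Rpl11, Rps9, Rps27 and Rps27l held such a run in the stretch shown, and Rps2 and Rpl3l did not.

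The arrays differed in ways that touch these genes. The median log2 signal of all probe sets lay between 6.22 and 6.41 on the 12 arrays. Shc1 read 8.57 to 9.83 over the arrays by a probe set whose place relative to the p66 exon is not given in the sources used here, so it does not check the p66-/- label, and the transcript of p53 itself was not analysed here. Each tissue's defining markers were highest in that tissue. The WT thymus array also carried 17 salivary gland markers at a mean log2 signal of 13.24, against 5.70 and 5.65 in p53-/- and p66-/- thymus, and had lower thymocyte markers (10.17, against 11.56 and 11.40). Hepatocyte markers averaged 7.09 in p53-/- lung, 9.48 in p66-/- lung and 10.42 in WT lung. The 18S rRNA control, a mean of 3 control probe sets for RNA that is not polyadenylated, lay at 9.04 to 10.86 on 6 arrays and at 5.52 to 6.62 on the other 6. The Gapdh 3′ control probe set exceeded the 5′ one, a sign of RNA quality, by 0.24 to 0.59 in thymus, 0.24 to 0.41 in heart and 0.82 to 0.94 in liver on the log2 scale, and by 0.66, 1.32 and 2.29 in p53-/-, p66-/- and WT lung. Its part in the tissue and genotype differences was not tested.

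Most members were bright. The probe sets of 35 genes averaged at least 10 on the log2 scale and those of 11 less, among them Rps16 (4.07 to 4.39 over the arrays), Rpl14 and Rpl39l, which averaged under 6.5, where the file's lowest signal is 3.26. The median over the 46 members was 13.50, 13.42 and 12.73 in p53-/-, p66-/- and WT thymus. It was 12.99, 13.07 and 12.88 in the lung arrays in the same order, and 12.27, 12.04 and 12.60 in the heart arrays. In liver it was 12.23, 12.41 and 12.43. Thymus and lung stood above heart and liver on every array, and within thymus and heart the WT array lay on the side nearer to the other tissues. Averaged over the 3 arrays, the member median was 13.2 ± 0.42 in thymus, 13.0 ± 0.10 in lung, 12.4 ± 0.11 in liver and 12.3 ± 0.28 in heart (SD, n = 3), so that liver and heart, and likewise thymus and lung, did not differ beyond their spread.

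**Figure D1:**
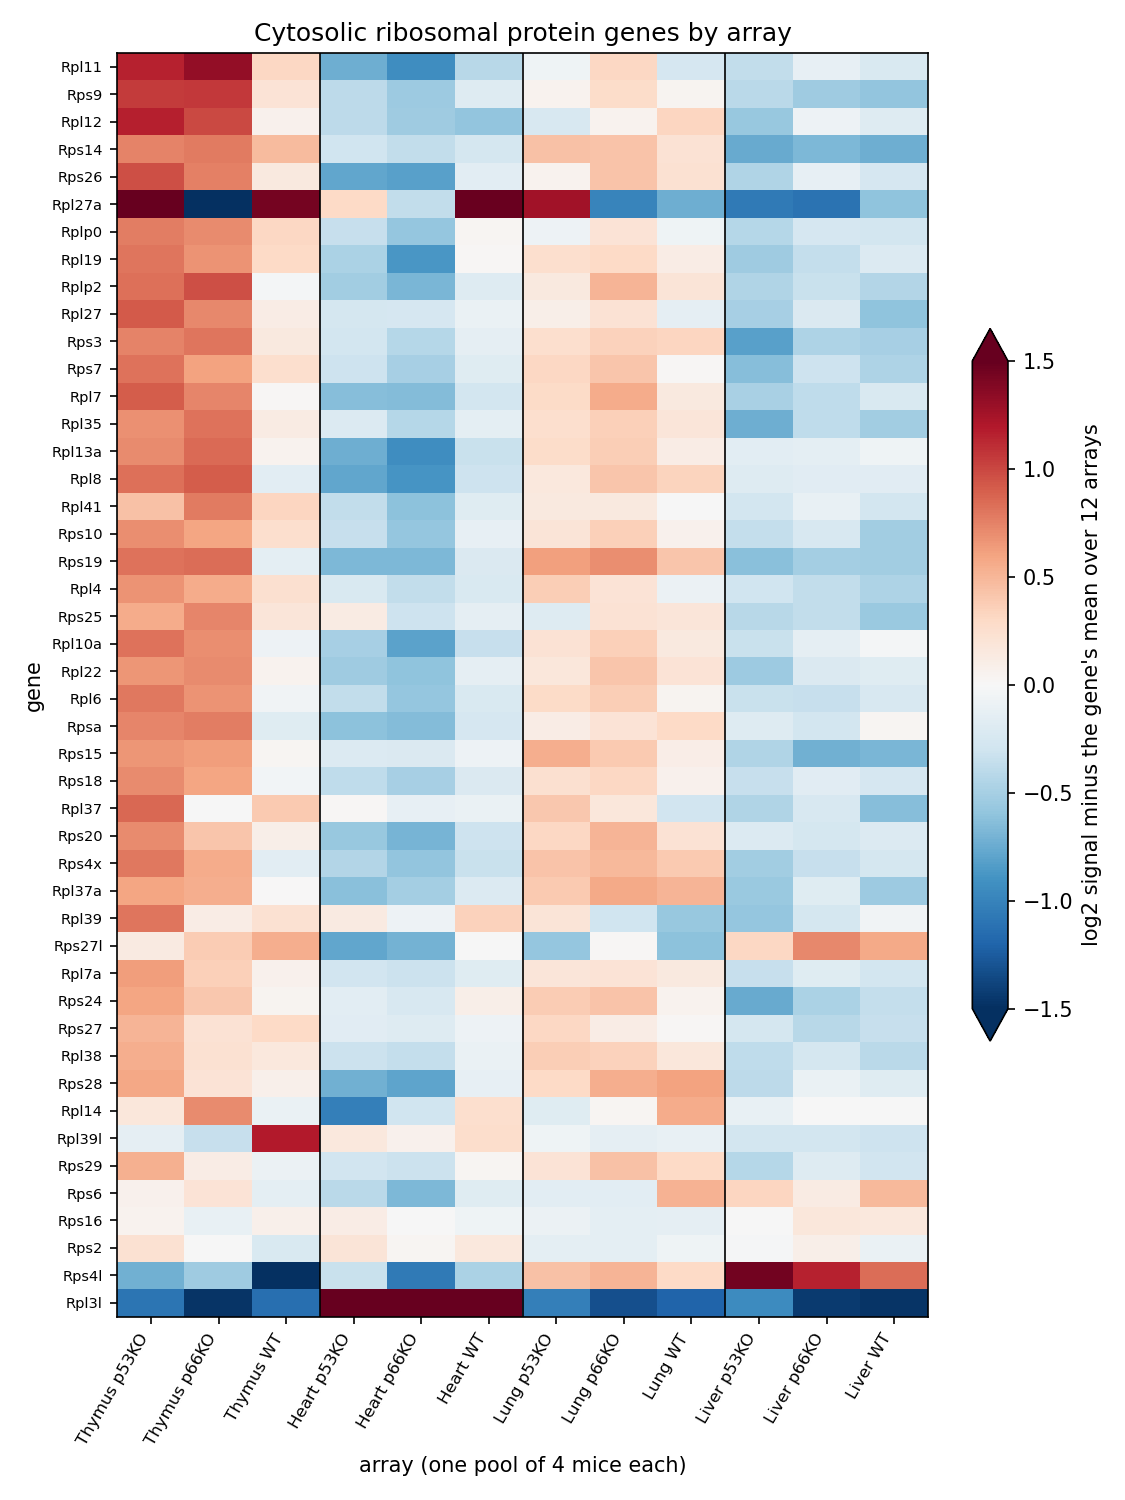
Heat map of the log2 signal of each of the 46 genes (rows, ordered by their thymus contrast) on the 12 arrays (columns), relative to the gene's own mean over the arrays. Most rows were high in thymus, above all in the knock-outs, and low in heart and liver, whereas Rpl3l was high in heart alone, Rps4l was highest in liver and Rpl27a followed no tissue.

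Each tissue was then set against the mean of the other 3 by limma, with genotype in the model and Benjamini-Hochberg adjustment over all 18193 genes. Any difference between tissues passed an adjusted p of 0.05 for 40 of the 46 members, against 54.9% of all genes, and the 6 that did not pass were Rpl14, Rpl27a, Rpl39, Rpl39l, Rps16 and Rps2. In thymus, 34 members (73.9%) were called higher and 2 (4.35%) lower, where 16.4% of all genes were called higher and 17.5% lower. In heart, 1 member was called higher and 27 (58.7%) lower, where 16.3% of all genes were called higher and 20.4% lower. In lung, 8 members (17.4%) were called higher, near the 17.1% of all genes, and 2 (4.35%) lower, beside 13.1% of all genes. In liver, 2 members were called higher and 17 (37%) lower, beside 14.3% and 19.5% of all genes. The median log2 difference of the members was 0.63 in thymus, -0.48 in heart, 0.29 in lung and -0.42 in liver, beside -0.02, 0.07, -0.12 and -0.08 for all genes. The 1066 other genes with a mean signal of at least 10 had medians of -0.01, -0.25, 0.14 and -0.02 in the same order. Of these, 20.1% were called higher in thymus, 36% lower in heart, 28.6% higher in lung and 22.8% lower in liver. The 92 other genes with a mean of at least 12 had medians of -0.19, 0.09, -0.05 and 0.02. Both subunits took part, with 19 of 24 large subunit and 15 of 22 small subunit genes called higher in thymus, and 13 and 14 of them lower in heart.

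These contrasts depend on the arrays used. With all arrays, 2984 genes were called higher in thymus, 3707 lower in heart, 3119 higher in lung and 3547 lower in liver. Without the p66-/- thymus array 15 members and 1745 genes were called higher in thymus, and without the WT thymus array 37 members and 4590 genes, with 35 members and 5140 genes lower in liver. Without the p53-/- lung array 3 members and 2755 genes were called higher in lung. Without all p66-/- arrays 4 members and 1066 genes were called higher in thymus and 0 members and 1580 genes lower in heart, and without all p53-/- arrays 1 member and 986 genes higher in thymus and 0 members and 1809 genes lower in heart. Without all WT arrays, these were 37 members and 4535 genes, and 35 members and 5038 genes. The thymus median stayed between 0.47 and 0.80 and the heart median between -0.66 and -0.35 in these 3 fits. Repeated quantile normalization gave 17 members and 2963 genes higher in lung, and 34 members and 3724 genes lower in liver. After cyclic loess the heart median was -0.06 with 7 members and 3695 genes called lower. The lung median was then -0.04 with 1 member and 3257 genes called higher, and the thymus median 0.38 with 24 members and 2871 genes called higher. The liver median was -0.33 with 19 members called lower. All genes called lower in liver in that fit are not given, so nothing particular to the members is read from the 19. The 110 probe sets that list several symbols had medians of 0.53, -0.50, 0.36 and -0.30 in thymus, heart, lung and liver.

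**Figure D2:**
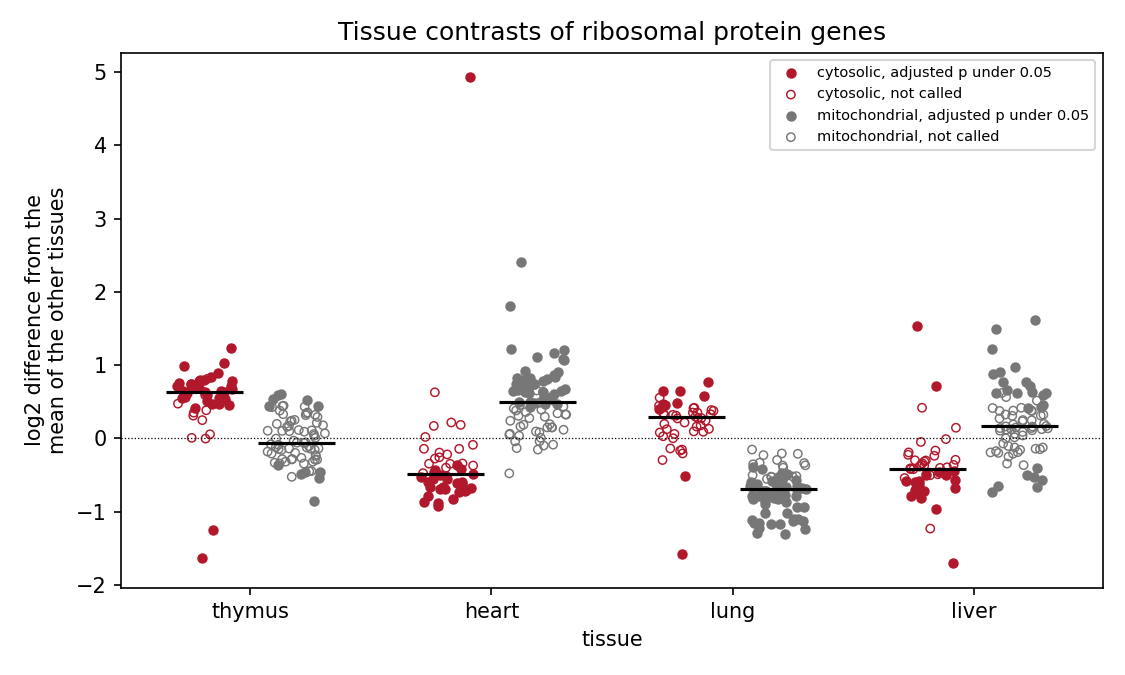
Log2 difference between each tissue and the mean of the other tissues (vertical axis) for the 46 cytosolic and, beside them, the 76 mitochondrial ribosomal protein genes; filled points passed an adjusted p of 0.05 and bars are medians. The cytosolic set had medians of 0.63 in thymus and -0.48 in heart as deposited (-0.06 in heart after cyclic loess), the mitochondrial set -0.06 in thymus, 0.49 in heart and -0.70 in lung.

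In thymus the members furthest above the other tissues were Rpl11, Rps9, Rpl12 and Rps14. Rpl11, a large subunit protein that also binds Mdm2, had log2 signals of 13.18, 13.34 and 12.34 in p53-/-, p66-/- and WT thymus. On the 9 arrays of the other tissues it lay between 11.09 and 12.33, so the thymus arrays were above every other one. This held for 5 of the 46 members, beside 1008 of all 18193 genes. The difference of Rpl11 was 1.24 ± 0.21 (SE, adjusted p = 9.55e-04 by limma), the widest among bright members. Rps9, which helps to keep decoding accurate, read 13.51, 13.53 and 12.67 in p53-/-, p66-/- and WT thymus, with a difference of 1.03 ± 0.18 (adjusted p = 1.20e-03), and here WT thymus overlapped with p66-/- lung at 12.74. Rpl12 (0.99 ± 0.23) and Rps14 (0.89 ± 0.11), whose human counterpart lies in the interval lost in 5q- syndrome, also rose in thymus. The 2 members called lower in thymus were Rpl3l (-1.64) and Rps4l (-1.26). For Rpl3l the thymus mean of 5.97 lay beside 6.01 in lung and 5.92 in liver, and its lower calls in these 3 tissues come from the heart mean of 10.9 in the average they were set against.

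In heart the lowest members were Rpl11 (-0.92 ± 0.21), Rpl13a (-0.89 ± 0.19), Rpl8 (-0.87 ± 0.22) and Rps4l (-0.83 ± 0.21, limma adjusted p = 0.011). Rpl13a, known in human cells as a part of the interferon-gamma-induced block on translation, had 12.42, 12.21 and 12.81 in p53-/-, p66-/- and WT heart and 12.99 to 13.995 elsewhere, so all heart arrays lay below the others. Rpl8, which lies close to the peptidyl transferase centre, had 11.13, 11.02 and 11.59 in the same heart arrays and 11.71 to 12.82 elsewhere. Heart thus held the lowest reading of both genes in every genotype. All heart arrays lay below the other 9 for 6 of the 46 members, beside 1190 of all 18193 genes.

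In lung the members called higher were led by Rps19 (0.77 ± 0.20), Rpl37a (0.65 ± 0.16), Rps28 (0.64 ± 0.17) and Rps4x (0.58 ± 0.18). Rps19, the gene most often mutated in human Diamond-Blackfan anaemia, read 12.14, 12.22 and 11.93 in p53-/-, p66-/- and WT lung, against 10.84 to 11.30 in heart and 10.89 to 11.01 in liver. It read 12.34 and 12.36 in p53-/- and p66-/- thymus, and 11.38 in WT thymus, so lung and thymus overlapped. After cyclic loess Rpl37a, Rps28 and Rps4x no longer passed the threshold (0.25, 0.22 and 0.18), and Rps19 did (0.48).

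In liver the lowest members after Rpl3l were Rps14 (-0.96 ± 0.11, limma adjusted p = 6.7e-05), Rps15 (-0.82 ± 0.14) and Rps3 (-0.79 ± 0.16), all of the small subunit. Rps14 was 12.46, 12.54 and 12.48 in p53-/-, p66-/- and WT liver, and 12.84 to 13.99 elsewhere. Rps15 was 12.23, 11.96 and 11.998 in the same arrays, and 12.46 to 13.35 elsewhere. Rps3, which sits at the messenger RNA entry channel and also acts in DNA repair, was 12.09, 12.44 and 12.41, and 12.48 to 13.71 elsewhere. For these 3 genes, which were picked for their low liver values, the liver arrays lay below all 9 others. This held for 6 of the 46 members, beside 1559 of all 18193 genes.

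The 11 measured genes of paralogue pairs had medians of 0.47, -0.56, 0.20 and -0.40 in thymus, heart, lung and liver. Of them, 5 (45.5%) were called higher in thymus and 7 (63.6%) lower in heart, beside 16.4% and 20.4% of all genes. Rpl3l, Rps4l and Rps27l departed from the other members. Rpl3l, the striated muscle paralogue of Rpl3, had log2 signals of 10.74, 10.83 and 11.12 in p53-/-, p66-/- and WT heart. On the 9 other arrays it lay between 5.72 and 6.26, near the arrays' medians over all probe sets. Its heart difference was 4.93 ± 0.14 on the log2 scale (limma adjusted p = 9.08e-09), the only call of a higher member in heart, and since no detection call was used and the other readings may be background, its size is best read as a lower bound. It stayed dim in lung (6.17, 5.88 and 5.99), where 15 cardiomyocyte markers averaged 8.39, 8.45 and 8.79, and in p53-/- thymus (6.10), where 13 skeletal muscle markers averaged 9.38, against 6.51 in WT thymus. Eef1a2, the muscle and neuron form of the elongation factor that brings aminoacyl-tRNA to the ribosome, was likewise highest in heart, with 13.23, 12.64 and 13.46 in p53-/-, p66-/- and WT heart and 8.30 to 9.25 elsewhere.

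Rps4l, a paralogue of the X-linked Rps4x, was highest in liver, with 9.16, 8.86 and 8.54 in p53-/-, p66-/- and WT. It was 8.14, 8.21 and 8.003 in lung, 7.38, 6.65 and 7.22 in heart, and 6.99, 7.18 and 6.12 in thymus. The order was liver, lung, heart, thymus, in which heart and thymus overlapped and the other neighbours did not. Liver stood 1.53 ± 0.21 above the other tissues (limma adjusted p = 1.87e-04), and this held under each alternative scaling. Over the scalings and probe set choices the difference was 1.53 to 1.60. The probe set choices could not change it, since Rps4l has only 1 probe set. In lung its values lay within 8.003 to 8.21, where hepatocyte markers averaged 7.09, 9.48 and 10.42. Rps4x differed from it in liver and thymus, with 12.62, 12.80 and 12.89 in p53-/-, p66-/- and WT liver, against 13.58, 13.64 and 13.54 in lung and 13.94, 13.71 and 12.99 in thymus. In heart both genes were called lower (-0.61 for Rps4x and -0.83 for Rps4l), and in lung their differences were 0.58 and 0.55.

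Rps27l, a paralogue of Rps27 that p53 is known to induce in human cells, was highest in liver (12.01, 12.42 and 12.26 in p53-/-, p66-/- and WT) and thymus (11.84, 12.08 and 12.25). It was 10.92, 10.99 and 11.70 in heart and 11.12, 11.72 and 11.08 in lung. It was called higher in liver (0.71 ± 0.18, limma adjusted p = 9.88e-03) and lower in heart (-0.66 ± 0.18) and lung (-0.52 ± 0.18). The liver call was lost when quantile normalization was repeated (0.47), and the lung call after median centring (-0.49) or without probe sets ending in _x_at or _s_at (-0.36). Rps27 had a dim probe set that followed the majority, higher in thymus (0.45 ± 0.11) and lower in liver (-0.45 ± 0.11).

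Rpl39l, known from the testis, lay below the arrays' medians on 11 arrays (4.96 to 5.57) and reached 6.49 in WT thymus. That array was the one with the salivary gland markers, and the part of such tissue in this reading was not tested. Rpl39, its broadly used counterpart on the exit tunnel, ranged from 7.88 to 9.27 and passed no tissue contrast. Rpl22, a protein that T cell development needs, was 13.15, 13.20 and 12.54 in p53-/-, p66-/- and WT thymus and 11.89 to 12.91 elsewhere, a difference of 0.63 ± 0.18 (limma adjusted p = 0.018). Its second probe set read 11.61, 11.84 and 11.04 in these thymus arrays and 10.22 to 11.41 elsewhere. The dimmest one went the other way, with 8.59, 9.26 and 8.39 in thymus against 9.13, 9.84 and 9.71 in lung. Rpl22l1, the paralogue of Rpl22 and outside the symbol rule, was 11.97, 11.91 and 11.66 in the same thymus arrays. It overlapped there with lung (11.56, 12.08 and 11.61). Rpl7 followed the majority, higher in thymus (0.73 ± 0.19, limma adjusted p = 0.013) and lower in heart (-0.69 ± 0.19), and its paralogue Rpl7l1 was called lower in heart and passed no threshold in thymus.

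**Figure D3:**
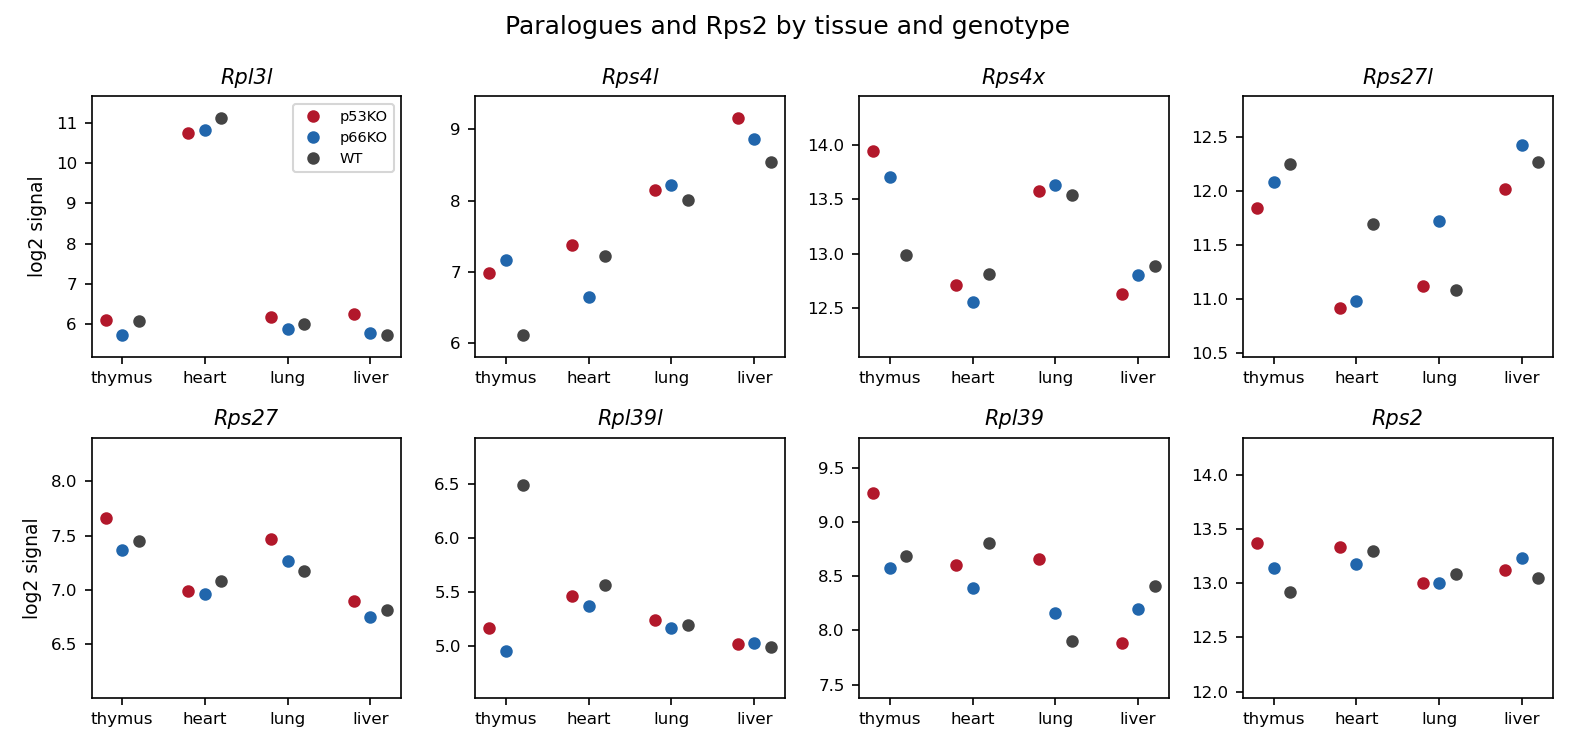
Log2 signal (vertical axes, each with its own range) of 7 genes of paralogue pairs and of Rps2 by tissue, 1 point per array, with the genotypes side by side. Rpl3l was above 10.7 in heart and below 6.3 elsewhere, Rps4l was highest in liver, Rpl39l stood out on the WT thymus array alone and Rps2 stayed between 12.92 and 13.37.

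The members also differed in how far they moved at all. Rps2, a small subunit protein near the entry of the messenger RNA, stayed between 12.92 and 13.37 on all 12 arrays, with an SD of 0.14, the smallest of any bright member. Rps16 had a smaller SD (0.11) only at a signal under 4.4, and Rps27, Rpl7a and Rps29 followed with 0.29, 0.31 and 0.32. The largest SDs belonged to Rpl3l (2.24), Rpl27a (1.24), Rps4l (0.93), Rpl11 (0.68) and Rps19 (0.63).

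Within each tissue, the knock-out arrays were set against the WT array. In thymus most members read higher in the knock-outs. The median log2 difference from WT was 0.57 in p53-/- thymus, with 43 of 46 members above 0, and 0.49 in p66-/- thymus, with 38 above 0; after cyclic loess these medians were 0.08 and -0.09. In heart most read lower, with medians of -0.21 in p53-/- (40 below 0) and -0.35 in p66-/- (44 below 0), which after cyclic loess were 0.12 and 0.09. In lung the medians were 0.09 and 0.20, and in liver -0.10 and 0.05. The residual SD of a single array's member median in a tissue and genotype fit was 0.30. A difference between arrays spreads more widely than a single array does, so this SD cannot show that a difference exceeds its spread. The lung and liver medians and that of p53-/- heart were smaller in size than even this SD. Over all genes the medians lay between -0.03 and 0.07 in these 8 comparisons. Both knock-outs share the WT array of a tissue, so a high or low WT reading enters both differences alike.

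Other bright genes moved as well. The 1066 other genes with a mean signal of at least 10 had medians of 0.30 and 0.51 in p53-/- and p66-/- thymus and of -0.31 and -0.42 in p53-/- and p66-/- heart. The 92 other genes with a mean of at least 12 had 0.27 and 0.28 in thymus and -0.15 and -0.32 in heart. In thymus, 16 proliferation markers averaged 10.86 and 10.69 in p53-/- and p66-/-, against 7.92 in WT, beside the thymocyte and salivary gland values given above. In heart, the salivary gland markers averaged 6.06 and 6.24 in p53-/- and p66-/-, against 8.22 in WT. Hepatocyte markers averaged 6.68 and 7.28 there, against 7.73 in WT heart, and 7 B cell markers 6.92 and 7.33, against 8.02. The part of these differences between the arrays in the shift of the members was not tested, and fewer cells of a type and less RNA per cell cannot be told apart in bulk tissue.

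Few members reached 2-fold. In p53-/- thymus, 1 member was 2-fold or more higher and 1 lower, where 8.89% and 4.81% of all genes were. In p66-/- thymus it was 2 higher and 2 lower, beside 12.7% and 4.78%. In p53-/- heart, 0 members were 2-fold higher and 2 lower, beside 0.115% and 2.08%, and in p66-/- heart 0 and 1, beside 0.181% and 1.67%. In p53-/- lung 1 member was higher and 0 lower, beside 0.616% and 4.14%, and in p66-/- lung 0 members were, beside 0.341% and 0.313%. In liver 0 members differed 2-fold in either knock-out. Of all genes, 0.0934% were above and 0.418% below this limit in p53-/- liver, as were 0.0824% and 0.302% in p66-/- liver. The genes behind these cases were Rpl27a, Rpl39l, Rpl12, Rpl8, Rps4l and Rpl14.

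Rpl12, a stalk base protein, had 8.43 and 8.25 in p53-/- and p66-/- thymus, against 7.33 in WT thymus, differences of 1.11 and 0.93. Rpl8 had 12.74 and 12.82, against 11.75 in WT thymus, differences of 0.98 and 1.07, which fell to 0.42 in p66-/- thymus after cyclic loess. Rps4l had 6.99 and 7.18, against 6.12 (0.87 and 1.06). In all 3 genes both knock-outs read above the WT array, as with most members.

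Rpl39l ran against them, with 5.17 and 4.96 in p53-/- and p66-/- thymus, against 6.49 in WT thymus (-1.32 and -1.53). Rpl14, whose probe set here is dim, had 4.86 and 5.59 in p53-/- and p66-/- heart, against 6.14 in WT heart (-1.27 and -0.55). Both genes had dim probe sets, with no array above 6.60 for Rpl14 or 6.49 for Rpl39l.

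**Figure D4:**
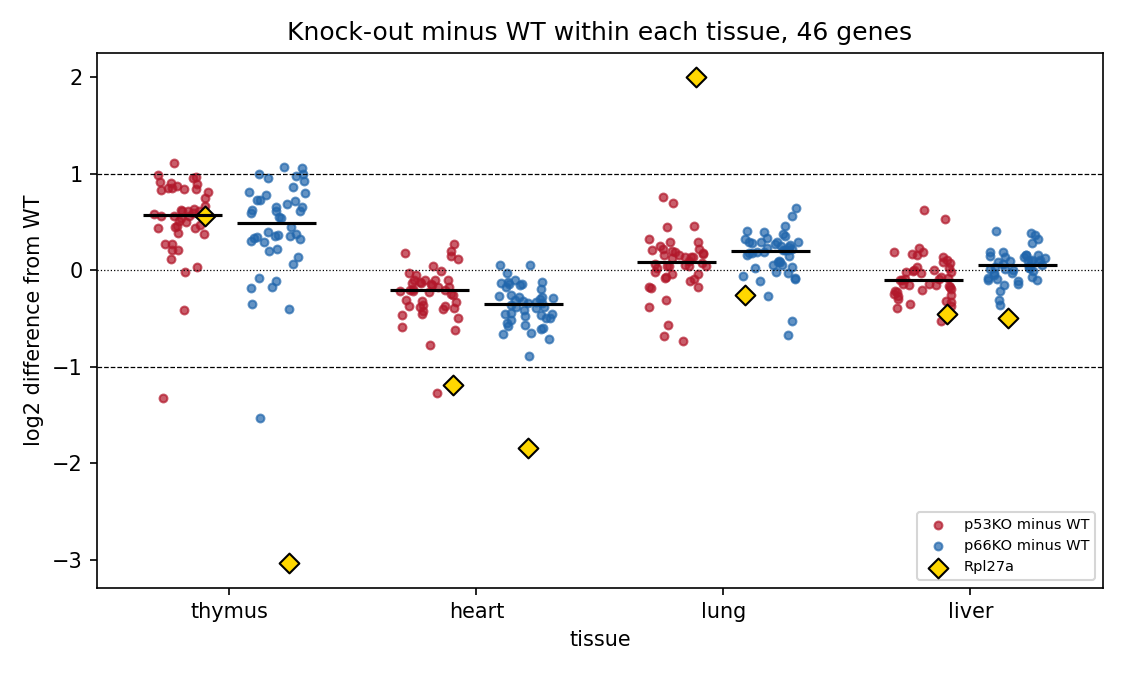
Log2 difference of each of the 46 genes (points) between a knock-out and the WT array of the same tissue (vertical axis), with p53KO left of p66KO and bars at the medians; dashed lines mark 2-fold. Most points lay above 0 in thymus and below 0 in heart in the deposited values (medians of 0.57 and 0.49, and of -0.21 and -0.35, which cyclic loess moved to 0.08 and -0.09, and to 0.12 and 0.09), and Rpl27a (diamonds) lay apart in thymus, heart and lung.

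Rpl27a, a large subunit protein near the peptidyl transferase centre, had the widest genotype differences. In lung its log2 signal was 10.94 in p53-/- and 8.69 in p66-/-, against 8.95 in WT, differences of 2.00 and -0.26. In thymus it was 11.68 in p53-/- and 8.08 in p66-/-, against 11.12 in WT, differences of 0.56 and -3.04. In heart it was 9.98 and 9.32, against 11.16 in WT, differences of -1.19 and -1.84. In liver it was 8.62 and 8.58, against 9.08 in WT, and neither knock-out differed by 2-fold. The p53-/- array was thus the high one in lung, the p66-/- array the low one in thymus, and WT the high one in heart. No genotype was high throughout. The p66-/- array read lowest in every tissue, by little in lung (8.69, against 8.95 in WT) and liver (8.58, against 8.62 in p53-/-).

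The probe set behind these values was compared with the others of the gene. The second single-symbol probe set was dim, at 4.21 to 5.31, and differed from WT by 0.73 in p53-/- lung and by -0.33 in p66-/- thymus. A probe set that lists Rpl27a together with 4 predicted genes was bright, at 13.09 in p53-/- and 13.19 in p66-/- lung, against 13.17 in WT lung, and at 13.50 and 13.24 in the knock-out thymus arrays, against 12.92 in WT thymus. Taking the mean of the 2 single-symbol probe sets, the differences were 1.36 in p53-/- lung and -1.68 in p66-/- thymus.

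The 18S rRNA control moved with the first probe set. It was 9.79 in p53-/- and 5.94 in p66-/- lung, against 5.52 in WT lung, and 10.30 in p53-/- and 5.97 in p66-/- thymus, against 10.86 in WT thymus. In heart it was 9.43, 9.04 and 9.61, and in liver 6.45, 6.07 and 6.62, in p53-/-, p66-/- and WT. On the 6 arrays where this control was at 9.04 or more, Rpl27a lay between 9.32 and 11.68, and on the 6 where it was at 6.62 or less, between 8.08 and 9.08. This split, which was made after the control's values were seen, puts all heart arrays on the high side and all liver arrays on the low side. Rpl27a was the 1 member of 46 (2.17%) whose 6 arrays all lay above the other 6, near the 2.97% of all genes, and 0 members lay below, where 1.25% of all genes did, so nothing about the members is read from these counts. In lung the Gapdh 3′ to 5′ difference given above was lowest on the p53-/- array, and in thymus it was 0.24 and 0.59 in p53-/- and p66-/-, against 0.35 in WT. The part of RNA quality or of ribosomal RNA carried into the labelling in the Rpl27a readings was not tested.

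**Figure D5:**
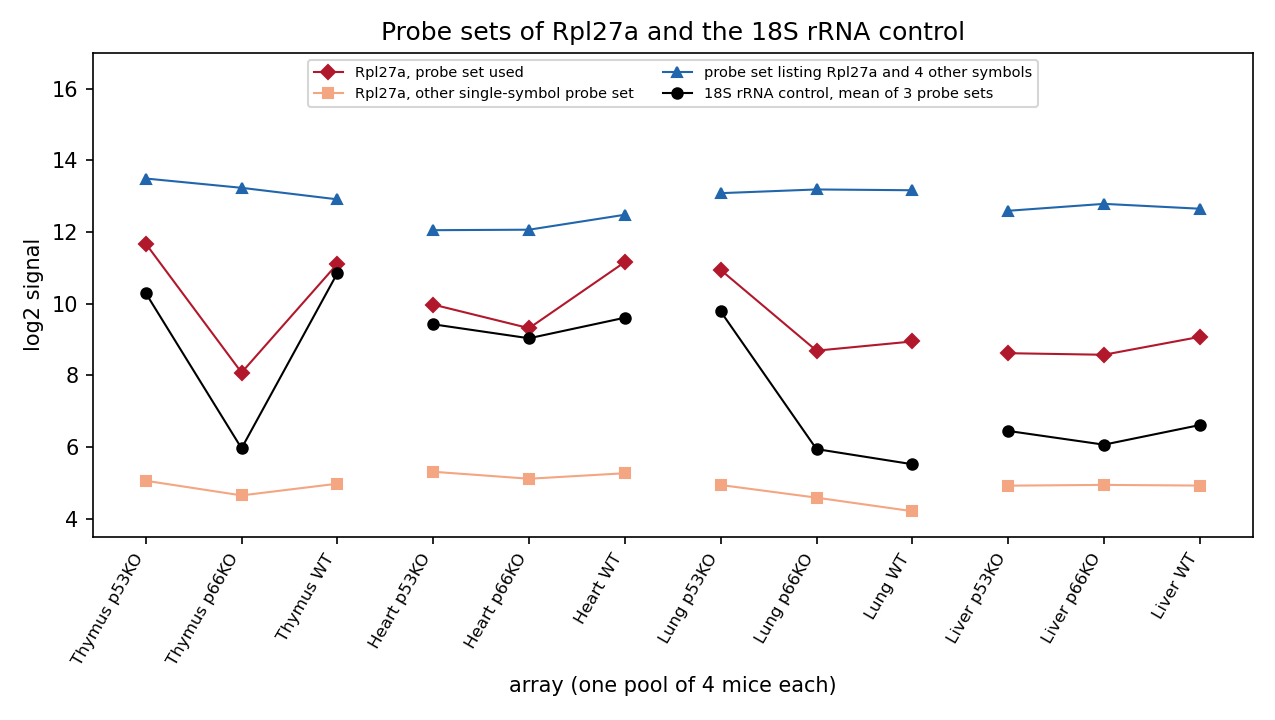
Log2 signal (vertical axis) on each of the 12 arrays of the Rpl27a probe set used, of its other single-symbol probe set, of the probe set that lists Rpl27a and 4 other symbols, and of the 18S rRNA control; lines join the 3 genotypes of a tissue. The probe set used was low on the p66-/- thymus array (8.08) and high on the p53-/- lung array (10.94), as was the control (5.97 and 9.79), whereas the shared probe set stayed between 12.05 and 13.50.

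Across tissues, the genotypes were compared by limma with tissue as a fixed term. For p53-/- minus WT, 0 members passed an adjusted p of 0.05, where 0.0055% of all genes did, and 0 members had an unadjusted p under 0.05. For p66-/- minus WT, 0 members passed, where 0% of all genes did, and 1 had an unadjusted p under 0.05, namely Rpl27a (-1.41 ± 0.56, limma adjusted p = 1). The median SE of a member's difference was 0.18 on the log2 scale, and the median differences were 0.10 in p53-/- and 0.10 in p66-/-. Shifts that run in opposite directions in thymus and heart enter the residual of this fit.

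The members highest in p53-/- were Rps4l (0.44 ± 0.22), Rpl37 (0.36 ± 0.18) and Rps15 (0.30 ± 0.15), and the lowest were Rpl14 (-0.46 ± 0.24), Rps27l (-0.35 ± 0.19) and Rpl39l (-0.34 ± 0.25), all with a limma adjusted p of 0.52 or more. Rps27l differed from WT by -0.41, -0.78, 0.04 and -0.25 in p53-/- thymus, heart, lung and liver, and by -0.17, -0.71, 0.64 and 0.16 in p66-/-. The members highest in p66-/- were Rpl27 (0.30 ± 0.16), Rpl11 (0.29 ± 0.22) and Rps4l (0.25 ± 0.22), and the lowest after Rpl27a were Rpl39l (-0.43 ± 0.25) and Rps6 (-0.30 ± 0.17), the substrate of S6 kinase. None of these differences passed the test against the spread between arrays.

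The members were also grouped by role. Of 15 genes listed as binding Mdm2 when free of the ribosome, 11 were measured, all of them members. Among these, 10 were called higher in thymus, 6 lower in heart and 7 lower in liver, with median log2 differences of 0.65, -0.42 and -0.59. These are 90.9%, 54.5% and 63.6% of the list, beside 16.4%, 20.4% and 19.5% of all genes. Rps27l was the one called higher in liver. Of the 3 stalk genes, Rplp0 and Rplp2 were measured, and both were higher in thymus (0.79 ± 0.16 and 0.79 ± 0.20). Of all 46 members, 34 were called higher in thymus, 27 lower in heart and 17 lower in liver. Outside the symbol rule, 4 ribosomal protein genes or paralogues were measured (Fau, Rps3a1, Rpl22l1 and Rpl7l1). Of these, 3 (75%) were called higher in thymus and all 4 (100%) lower in heart, beside 16.4% and 20.4% of all genes.

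Genes that build or serve the ribosome were compared in the same way. Of 32 measured translation initiation and elongation genes, 11 were called higher and 1 lower in thymus (median 0.47), and 2 higher and 15 lower in heart (median -0.54). The 11 higher in thymus were 34.4% of the list, beside 16.4% of all genes, and the 15 lower in heart 46.9%, beside 20.4%. Pabpc1, which binds poly(A) tails, was highest of them in thymus (1.15) and lowest in heart (-1.27), and Eef1a2 and Eif4e were the 2 higher in heart. Of 64 ribosome biogenesis genes, 27 (42.2%) were called higher in thymus, beside 16.4% of all genes, led by the nucleolar protein gene Nop58 (1.54). In heart 15 (23.4%) were called lower, near the 20.4% of all genes. Within thymus their medians against WT were 0.73 in p53-/- and 0.92 in p66-/-, with 18 (28.1%) and 31 (48.4%) genes 2-fold or more higher, beside 8.89% and 12.7% of all genes. Of 12 mTOR and S6 kinase genes, 1 was higher and 1 lower in thymus (8.33% each), beside 16.4% and 17.5% of all genes.

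The mitochondrial ribosomal protein genes differed in their tissue order. Of 76 measured, 38 were called higher and 0 lower in heart (median 0.49), and 0 higher and 58 lower in lung (median -0.70), where the cytosolic members had medians of -0.48 and 0.29. The 38 were 50% of the list, beside 16.3% of all genes higher in heart, and the 58 were 76.3%, beside 13.1% lower in lung. In thymus 6 were called higher and 6 lower (7.89% each), beside 16.4% and 17.5% of all genes. Within thymus they too read higher than WT in p53-/- (median 0.34) and p66-/- (0.61), and within heart lower (-0.31 and -0.39).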

How the data were processed

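Total RNA of each tissue, pooled from 4 mice, was labelled by a one-cycle protocol and hybridised to 12 Affymetrix Mouse Genome arrays. The authors deposited log2 signals, 1 per probe set and array, from the RMA procedure of Partek 6.5. RMA corrects background, makes the arrays' distributions of probe signals equal and summarises probes. The deposited signals were not fully equal between arrays, with medians of 6.22 to 6.41 and maxima of 14.63 to 15.41. These signals were used without further normalization. Tests rest on differences of 1 probe set between arrays, while medians and means over probe sets describe lists. The methods name 2 formats of this array, and names came from the platform's probe table.

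The file holds 45101 probe sets, of which 64 are controls, 34945 had 1 symbol in the table, 932 had several and 9160 had none. The Entrez numbers of all 46 members matched RefSeq, and 0 symbols were changed. Of the members, 16 were read by a probe set ending in _x_at or _s_at, which may bind related transcripts.

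Groups came from the sample labels. limma 3.58.1 in R 4.3.3 was fitted with tissue and genotype as terms, leaving 6 residual degrees of freedom. Each tissue was set against the mean of the other 3, and each knock-out against WT, with a Benjamini-Hochberg adjusted p under 0.05 as threshold. The same mice may have given several tissues, and p-values measure only the spread between these arrays. Within a tissue the log2 signal of WT was subtracted and 2-fold counted, without a test. The fit was tested on simulated data. Python 3.11.15, numpy 2.4.6, pandas 2.3.3 and matplotlib 3.10.9 were used.

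The members, the lists and the alternatives were chosen with earlier results of these data known. Named were Rpl27a, the paralogues, per tissue contrast the 4 highest and 4 lowest members called, every member 2-fold different from WT in a tissue, the 5 largest and 5 smallest SDs, the 3 highest and 3 lowest per genotype contrast, and examples of the role lists. The number of arrays limits the precision.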

Additional observations from a re-analysis of the deposited data

Results flagged for a closer look

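The median difference of the members ran in opposite directions in 2 pairs of tissues, with both knock-outs above WT in one tissue and both below in the other. Thymus less heart, this was 0.78 on the log2 scale for p53-/- minus WT and 0.84 for p66-/- minus WT. Lung less heart, it was 0.30 and 0.55. These differences between tissues were not tested, each tissue having 1 array per genotype, and both knock-outs share the WT array. After cyclic loess the medians in heart were 0.12 in p53-/- and 0.09 in p66-/-, beside 0.08 and -0.09 in thymus and 0.24 and 0.06 in lung. In p66-/- the thymus median was then below 0 and those of heart and lung above, so that the signs of thymus and heart were exchanged. In p53-/- the medians of these tissues were all above 0. In the deposited values the lung medians (0.09 and 0.20) and that of p53-/- heart (-0.21) were smaller in size than 0.30. That is the residual SD of a single array's member median, and a difference between arrays spreads more widely.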

How the results depend on the processing

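After cyclic loess, the heart contrast was -0.062 with 2 members called higher and 7 lower, and the lung contrast -0.039 with 1 higher and 5 lower. The knock-out medians were then 0.083 (p53-/- thymus), -0.09 (p66-/- thymus), 0.12 (p53-/- heart, 1 member 2-fold different) and 0.085 (p66-/- heart). Repeated quantile normalization gave 2 higher in heart, 17 higher in lung, 34 lower in liver with a median of -0.60, medians of 0.23 in p53-/- thymus and -0.025 in p66-/- heart, and 1 and 2 members 2-fold different in p53-/- heart and lung. Median centring left 1 lower in lung, and gave 5, 10 and 2 members 2-fold different in p53-/- thymus, p66-/- thymus and p66-/- heart. With the mean of all probe sets the lung median was 0.19, and 1 and 0 members were 2-fold different in p53-/- and p66-/- heart. Without probe sets ending in _x_at or _s_at (41 members), 3 were higher in heart and 5 in lung, and 2 were 2-fold different in p53-/- lung and in p66-/- heart. An intensity trend left 1 lower in lung. At 1.5-fold, 23 members differed from WT in p53-/- thymus and 23 in p66-/- thymus. The shares of all genes at 1.5-fold, and at 2-fold under the other scalings, were not counted. Tissue calls over all genes under these settings are given above only in part. Nothing particular to the members is therefore read from these counts. The cause of these moves was not tested.

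Leaving out the arrays of 1 genotype in turn, the members called higher and lower ranged from 1 to 37 and 2 to 2 in thymus, 1 to 1 and 0 to 35 in heart, 0 to 10 and 1 to 1 in lung and 1 to 3 and 3 to 29 in liver. Over all genes the thymus calls in these fits ranged from 986 to 4535 higher and from 1883 to 4438 lower. All genes called lower in heart are given above, and those in lung and liver are not given. Nothing particular to the members is read from these ranges. Each fit had 3 residual degrees of freedom, and the fewest members higher in thymus and lower in heart and liver came without a knock-out and the most without WT. The medians ranged from 0.47 to 0.80, -0.66 to -0.35, 0.24 to 0.32 and -0.48 to -0.36. Chosen after seeing the data, leaving out the WT thymus array gave 2 higher in heart and 35 lower in liver. Without the p53-/- lung array 3 were higher and 1 lower in lung, and without the p66-/- thymus array 15 were higher in thymus and 1 lower in lung. Nothing particular to the members is read from these counts either. The probe sets listing several symbols had a liver median of -0.30.

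Across tissues, 0 members were called for p53-/- or p66-/- under each of the 12 alternatives. Of the results on which calls or counts rest, 216 kept their call or stayed within their spread, 48 moved and 4 changed sign. Tissue and genotype were terms of each fit, but no paired analysis was possible because the labels give no replicate numbers to pair by, with 1 array per tissue and genotype. Differences of dim probe sets (Rps16, Rpl14, Rpl39l) are the least certain.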
